A study of Mus musculus with 6 samples.

Results

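The claudins and cadherins of mouse lung were taken as the gene identifiers made of Cldn or Cdh followed by digits alone, which gave 47 of the 40842 named genes in the tables, 24 claudins and 23 cadherins. Claudin-like names with letters after the number (such as Cldn34a) and cadherin-related names (such as Cdhr1) were therefore not members. Of the 47, 17 averaged 1 FPKM or more across the 6 libraries and were tested (11 claudins and 6 cadherins), and 30 lay below that level. FPKM, the deposited expression level used here, is scaled for transcript length and library size. Levels of different genes can therefore be set side by side. Values are given in the order of libraries 1, 2 and 3 of a group.

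The libraries were polyA RNA from whole lung of wild-type female C57BL/6N mice. The 3 control libraries came from untreated mice, and the 3 irradiated libraries came from mice given one exposure to an electron beam at 20 Gy. Both groups carry the label of 100 days, and neither the age of the mice nor the exposed part of the body is given in the labels. Since no label says that the libraries of a group are separate mice, a p-value here rests on how far libraries of a group differ, and that difference may be technical.

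Claudins are small membrane proteins that form the strands of tight junctions and set which ions and solutes pass between cells. Classical cadherins are calcium-dependent adhesion proteins of adherens junctions, which bind the same cadherin on the neighbouring cell and hold β-catenin and p120-catenin at the membrane. In lung, endothelium uses claudin-5 and VE-cadherin (Cdh5), while alveolar epithelium uses claudin-18, claudin-3, claudin-4, claudin-7 and E-cadherin (Cdh1). Fibroblasts and other mesenchymal cells carry other cadherins, among them Cdh11 and Cdh2.

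The depth implied by the tables was 5.11 to 10.4 Gb of aligned sequence per library, with irradiated 2 the deepest. Control 2 and irradiated 2 lay at the ends of the first principal component, which held 36.3% of the variance. Irradiated 2 had the highest summed FPKM of red cell markers (6255, against 1347 to 1709 in the other libraries) and of neutrophil markers (4876, against 77.2 to 1435). Control 2 had the highest summed FPKM of cardiac muscle markers (575, against 20.6 to 263) and of adipose markers (95.1, against 5.49 to 43.1). Lung identity was plain in every library, with the 12 alveolar type 2 markers summing to between 15143 and 25542 FPKM.

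Cdh16 was the 1 member of 17 past an adjusted p of 0.05 in limma, and it fell in irradiated lung. Over all 13908 genes tested, 25 passed in either direction, or 0.18%, of which 16 were lower (0.115%) and 9 higher (0.0647%). The endothelial members Cldn5 and Cdh5 and the most abundant epithelial members Cldn18, Cldn3 and Cdh1 had overlapping groups. In 6 of the 17, namely Cdh16, Cldn15, Cldn10, Cldn7, Cdh11 and Cldn23, every irradiated library was below every control, against 14.6% of all genes tested, and in 0 of the 17 was every irradiated library above every control, against 9.91% of all genes tested.

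The change was negative in 15 of the 17 tested members, with a median log2 change of −0.29, beside 55.8% negative and a median of −0.03 over all genes tested. Scaling the libraries to the same FPKM total (the common-sum scaling) shifted the median of all genes by 0.119. Members with a negative change were then 12 of 17, beside 36.0% of all genes. That scaling divided FPKM by 0.298 to 0.351 before 1 was added for the log, so the added 1 weighed less there. With median-ratio scaling, which levels libraries by the median gene, 15 of 17 members were negative, beside 49.1% of all genes. Without these scalings, at an unadjusted p under 0.05, 4 members were lower (Cdh16, Cldn15, Cldn10 and Cldn7) and 0 were higher. Beside them stood 10.3% and 7.41% of all genes tested. In whole tissue, fewer cells of a type and less RNA per cell cannot be told apart.

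**Figure D1:**
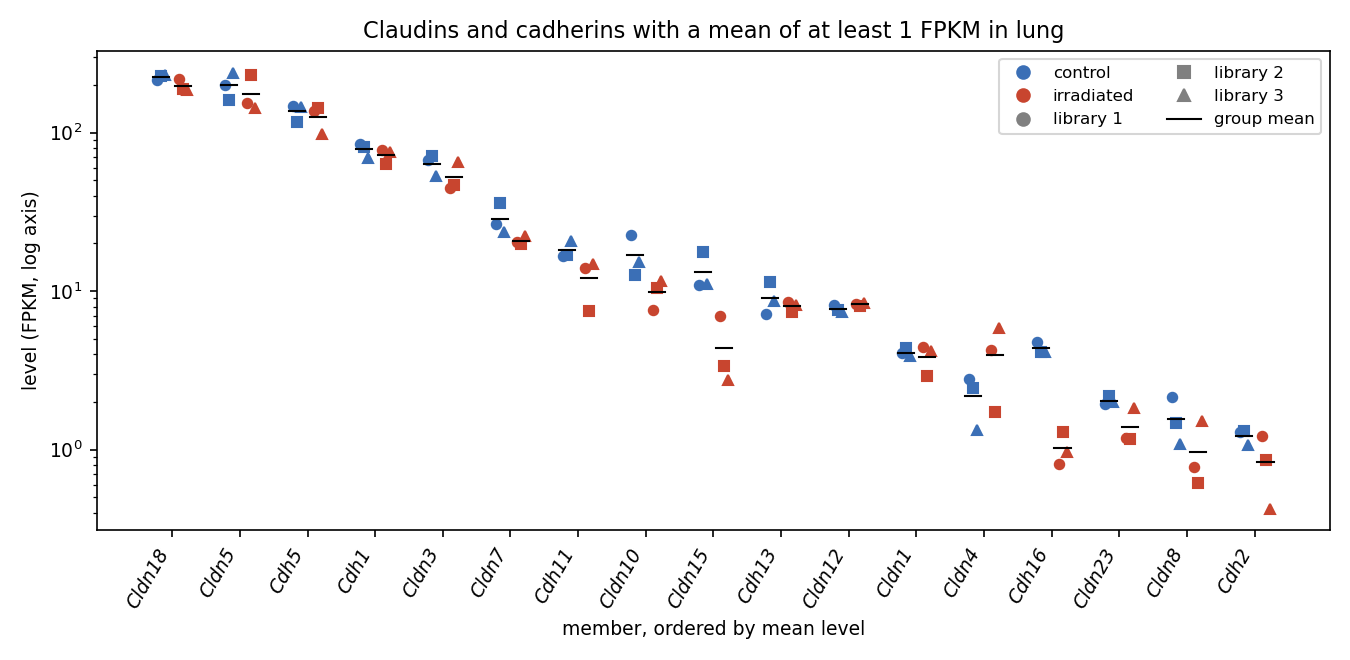
Level of each claudin and cadherin with a mean of at least 1 FPKM, in FPKM on a log axis, ordered by mean level. Points are libraries (blue control, red irradiated, with a shape for each library number) and black lines are group means. Cldn18, Cldn5 and Cdh5 lead, and for Cdh16 the controls sit between 4.14 and 4.76 FPKM and the irradiated libraries between 0.811 and 1.29 FPKM.

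**Figure D2:**
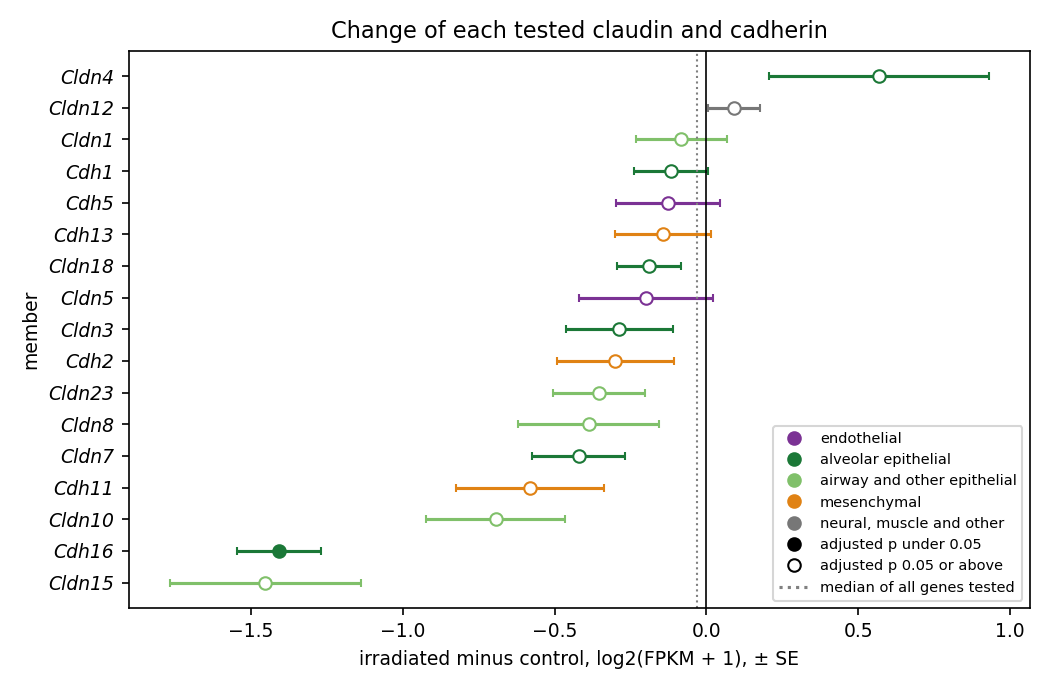
Change of each of the 17 tested members, after irradiation relative to control, in log2(FPKM + 1) units with its standard error, coloured by the cell class assigned to the gene from general knowledge. Filled points have an adjusted p under 0.05 and the dotted line is the median of all genes tested. Cdh16 is the filled point at −1.41, and Cldn15 lies at −1.45 with a wider error.

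The endothelial members were among the most abundant of both families. Cldn5, the main claudin of endothelial tight junctions, was at 201, 162 and 240 FPKM in control lung against 155, 231 and 144 FPKM after irradiation. Irradiated 2 lay within the control range and the other 2 irradiated libraries lay below it. Its log2 change was −0.20 ± 0.22 (SE; limma adjusted p = 0.681). Single libraries moved it widely, to −0.41 without irradiated 2, −0.35 without control 2, −0.12 without irradiated 1, −0.067 without irradiated 3 and −0.063 without control 3, and it was −0.069 under the common-sum scaling.

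Cdh5, the cadherin of endothelial adherens junctions, was at 147, 118 and 146 FPKM in control lung against 136, 144 and 98.5 FPKM after irradiation. Here irradiated 3 alone was below the controls. Its log2 change was −0.13 ± 0.17 (limma adjusted p = 0.743), with 0.0030 under the common-sum scaling and −0.084 with median-ratio scaling. With a library left out it was between −0.23 (without control 2 or irradiated 2) and 0.041 (without irradiated 3).

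Other endothelial genes were read beside them. Of the 15 endothelial markers tested, 12 had negative changes (median −0.39), beside 55.8% of all genes tested. In 7 every irradiated library was below every control, beside 14.6% of all genes tested. Aplnr alone passed the threshold, beside 0.18% of all genes tested. Aplnr, the apelin receptor, fell from 16.7, 14.7 and 13.9 FPKM to 3.60, 2.19 and 1.60 FPKM (log2 change −2.25 ± 0.21, limma adjusted p = 0.0298). Tie1, an endothelial receptor kinase, was at 69.5, 54.9 and 64.7 FPKM in control lung against 46.4, 46.6 and 37.9 FPKM after irradiation (log2 change −0.52 ± 0.13, limma adjusted p = 0.125). The 3 markers with positive changes, named after their values were seen, were Pecam1 (0.0070), Robo4 (0.058) and Cd34 (0.46). All had overlapping groups. A difference between Cldn5 or Cdh5 and the other endothelial genes was not tested. The median of the list relative to the control mean was −0.01, −0.16 and 0.14 for the control libraries, against −0.29, −0.19 and −0.47 after irradiation.

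**Figure D3:**
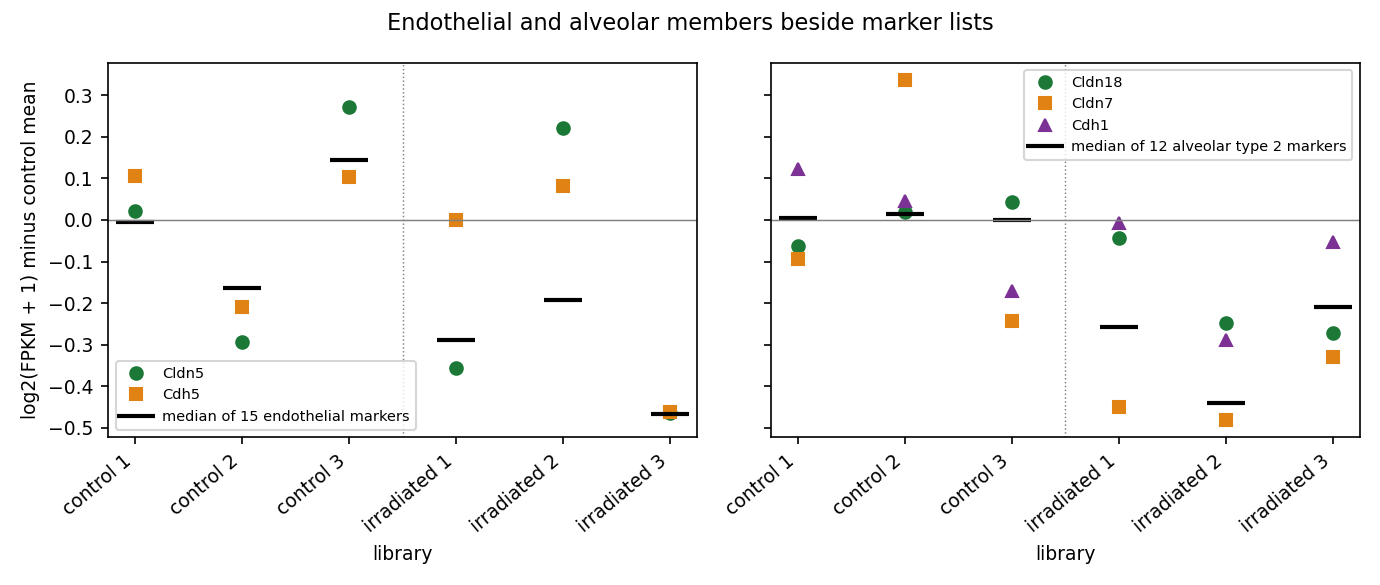
Endothelial members (left) and alveolar epithelial members (right) in each library, as log2(FPKM + 1) minus the control mean, with black bars for the median of a marker list. In irradiated 2 the endothelial marker median is −0.19 while Cldn5 (231 FPKM) and Cdh5 (144 FPKM) are above their control means of 201 and 137 FPKM. On the right, Cldn7 is below its lowest control in every irradiated library.

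The sequence before the start of Cldn5 is shown because Cldn5 is the leading endothelial claudin. It and the sequences further on are the 250 bases before an annotated start, from RefSeq on GRCm38.p6, a build other than that of the expression tables. Of the 17 tested members, 9 had such a window, all of them claudins. Capitals mark matches on either strand to the GC box GGGCGG (bound by Sp1 family factors), the E-box CAGGTG (bound by Snail and Zeb factors), the TATA box TATAAA, the ETS site CCGGAAGT and the Grainyhead site AACCGGTT. A match describes the letters and does not show that a factor binds.

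Cldn5 (chr16:18776597-18776846, plus strand): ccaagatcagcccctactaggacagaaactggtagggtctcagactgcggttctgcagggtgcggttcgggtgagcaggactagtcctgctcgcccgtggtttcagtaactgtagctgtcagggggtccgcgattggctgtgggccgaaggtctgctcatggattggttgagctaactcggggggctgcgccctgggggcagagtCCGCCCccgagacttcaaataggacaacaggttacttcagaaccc

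A GC box stood in 9 of the 14 windows of tested members, against 33.0% of 32536 windows of all genes. An E-box stood in 2 of the 14, against 17.3%, and a TATA box in 0 of the 14, against 12.3%. An ETS site stood in 1 of the 14, against 2.9%, and the Grainyhead site in 0, against 0.117%. The 14 windows include overlapping ones of Cldn12, and no test was made.

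Among alveolar epithelial members, Cldn18 had the highest mean over the 6 libraries of either family, with Cldn5 above it in control 3 and irradiated 2. Claudin-18 is the characteristic claudin of alveolar epithelium, and its gene has alternative starts used in lung and in stomach. Its level was 214, 227 and 231 FPKM in control lung against 217, 188 and 185 FPKM after irradiation. Irradiated 1 lay inside the control range, and the other 2 were below it (log2 change −0.19 ± 0.11, limma adjusted p = 0.395; −0.058 under the common-sum scaling).

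The tables also list unnamed loci that were assembled from each library. Over Cldn18 the assembled locus began at the outermost annotated base of the gene in all 6 libraries. RefSeq has 2 starts for this gene, 7204 bases apart, and the window before the outer one is shown for that reason. It held 0 matches to the motifs searched.

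Cldn18 (chr9:99717268-99717517, minus strand): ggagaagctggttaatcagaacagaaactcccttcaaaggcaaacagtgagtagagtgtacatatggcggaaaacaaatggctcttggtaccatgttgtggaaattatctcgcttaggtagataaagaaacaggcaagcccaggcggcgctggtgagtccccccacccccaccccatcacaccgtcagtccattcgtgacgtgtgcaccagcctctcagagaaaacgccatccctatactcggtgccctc

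Cldn3 and Cldn4 are neighbours on chromosome 5, with 39280 bases between them, and both encode receptors for a clostridial enterotoxin. Cldn3 was at 66.9, 71.3 and 53.2 FPKM in control lung against 45.1, 47.0 and 65.3 FPKM after irradiation (log2 change −0.29 ± 0.18, limma adjusted p = 0.433). Irradiated 3 was inside the control range. The change was −0.45 without irradiated 3, −0.19 without irradiated 1 and −0.16 under the common-sum scaling.

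Cldn4, a claudin of alveolar epithelium known to respond to injury, had a far lower level and a positive change. It was at 2.78, 2.44 and 1.34 FPKM in control lung against 4.28, 1.73 and 5.89 FPKM after irradiation. Irradiated 1 and 3 were above every control and irradiated 2 was inside the control range. The log2 change was 0.57 ± 0.36 (limma adjusted p = 0.451), 0.95 (adjusted p = 0.218) without irradiated 2, 0.36 without control 3 and 0.28 without irradiated 3.

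Cldn7, a claudin found along epithelial cell borders, was at 26.4, 35.9 and 23.7 FPKM in control lung against 20.4, 20.0 and 22.3 FPKM after irradiation. The groups did not overlap, with irradiated 3 close to control 3. Its log2 change of −0.42 ± 0.15 did not pass (limma adjusted p = 0.232), and it was −0.25 without control 2, the highest library.

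RefSeq gives Cldn7 2 starts, 642 bases apart. The assembled locus began at the outer base of the gene in 4 libraries and 642 bases further in, the same distance, in control 2 and irradiated 3. The window before the inner start is shown because it was the only window of a tested member with matches to 3 of the motifs. It held 2 E-boxes, 97 and 57 bases before the start, an ETS site at 67 bases and a GC box at 6 bases, with no overlap between them.

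Cldn7 (chr11:69965171-69965420, plus strand): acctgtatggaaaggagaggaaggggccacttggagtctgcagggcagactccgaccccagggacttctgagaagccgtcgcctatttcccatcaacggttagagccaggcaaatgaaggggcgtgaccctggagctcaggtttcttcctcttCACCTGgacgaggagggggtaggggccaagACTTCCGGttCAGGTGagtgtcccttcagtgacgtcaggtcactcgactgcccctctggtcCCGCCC

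Cdh1, E-cadherin of epithelial adherens junctions, was at 85.3, 80.8 and 69.4 FPKM in control lung against 77.9, 63.9 and 75.4 FPKM after irradiation. Irradiated 2 alone lay below the controls (log2 change −0.12 ± 0.12, limma adjusted p = 0.659). It was 0.013 under the common-sum scaling, −0.074 with median-ratio scaling, −0.20 without control 3, −0.054 without control 1 and −0.030 without irradiated 2. Markers of alveolar type 2 cells were lower beside these members, with 11 of 12 tested negative (median −0.33), beside 55.8% of all genes tested. In 7 every irradiated library was below every control, beside 14.6% of all genes tested. The summed FPKM of the 12 markers was 22803 to 25542 in the controls and 15143 to 17434 in the irradiated libraries. Most of it was Sftpc, at 14677 to 16828 FPKM in the controls and 8741 to 9588 FPKM after irradiation. Sftpa1 (log2 change −0.025) and Sftpd (0.039), named after their values were seen, overlapped between groups. The part of type 2 cells in the member values was not tested. Alveolar type 1 markers had a median of −0.03, with 7 of 12 negative.

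Set against each other, the endothelial and epithelial members had overlapping ratios. Cdh16, classed with the alveolar epithelial genes (log2 change −1.41), was left out, and the difference with it included was not computed. Of the epithelial members used, Cldn4 alone had a positive change (0.57), at a low level. Cldn18 (−0.19), Cldn3 (−0.29), Cldn7 (−0.42) and Cdh1 (−0.12) were negative. The difference without Cldn4 was not computed either, so its sign may depend on the members chosen. The mean log2(FPKM + 1) of Cldn5 and Cdh5 minus that of Cldn18, Cldn3, Cldn4, Cldn7 and Cdh1 was 2.04 ± 0.39 in the controls and 1.97 ± 0.53 in the irradiated libraries (SD, n = 3 each). Per library it was 2.04, 1.65 and 2.43 without irradiation, against 1.91, 2.52 and 1.47 after it, so that irradiated 2 was the highest of the 6 and irradiated 3 the lowest. The ratio of Cldn5 to Cldn18 ranged from 0.713 to 1.04 in the controls and from 0.712 to 1.23 in the irradiated libraries. The ratio of Cdh5 to Cdh1 ranged from 1.45 to 2.11 and from 1.31 to 2.25. No p is given, because these members were chosen with results of the data known.

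Cldn18, Cldn5 and Cldn3 together made up 84.1% to 90.5% of the summed claudin FPKM in every library. That sum was 563, 547 and 590 FPKM in control lung against 473, 516 and 454 FPKM after irradiation. Cdh5 and Cdh1 led the cadherins, with 48.6% to 63.3% and 27.5% to 37.2% of the summed cadherin FPKM. The cadherin sum was 265, 237 and 252 FPKM in control lung against 242, 227 and 203 FPKM after irradiation. Summed over all named genes, FPKM was also lower in every irradiated library than in every control. That total was 333368, 350820 and 321039 in control lung against 306697, 298352 and 312652 after irradiation. The family sums were not scaled to it.

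Cdh16, called kidney-specific cadherin after the tissue it is best known from, is a cadherin with a short cytoplasmic tail found in kidney tubules and thyroid. In the plot of changes it is coloured with the alveolar epithelial genes. It lies on the minus strand of chromosome 8, 105328547 to 105351028 in the GRCm39 coordinates of the tables. Its level was 4.76, 4.14 and 4.15 FPKM in control lung against 0.811, 1.29 and 0.965 FPKM after irradiation. Even the highest irradiated library was far below the lowest control. Cdh16 fell by 1.41 ± 0.14 on the log2(FPKM + 1) scale (limma adjusted p = 0.0298), and the ratio of group means was 0.235.

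The deposited per-base coverage of Cdh16 was 22.5, 21.04 and 18.3 without irradiation, against 3.50, 10.1 and 3.73 after it, where irradiated 2 is also the most deeply sequenced. No named gene of the tables overlaps it. The call ended without control 1 (limma adjusted p = 0.203), control 2 (0.121), control 3 (0.137) or irradiated 2 (0.0642), with the replicate number as a block (0.282) and with no filter on low levels (0.149). The log2 change stayed between −2.01 and −1.33 in all 14 alternatives that tested the gene.

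The nearest expressed neighbours of Cdh16 had smaller differences, and none passed. Pdp2, 2889 bases away on one side, was at 2.15 against 1.82 FPKM (group means; log2 change −0.16 ± 0.15). Rrad, a small GTPase gene 3674 bases away on the other side, was at 4.74 against 2.66 FPKM (log2 change −0.63 ± 0.19, limma adjusted p = 0.182), with every irradiated library below every control. Nae1 and Ciao2b, the next genes out, had log2 changes of −0.14 and −0.02.

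The 10 markers of thyroid and kidney were below 1 FPKM in all 6 libraries, except Iyd. Their summed FPKM was 2.65 to 3.75 in the controls and 2.98 to 4.34 in the irradiated libraries, most of it from Iyd, an iodotyrosine deiodinase (1.60 to 2.92 and 2.24 to 3.38 FPKM). Thyroglobulin (Tg) was at 0.0862 to 0.197 FPKM over the 6 libraries, uromodulin (Umod) at 0 to 0.112 FPKM, and Kap, a kidney androgen-regulated gene, was listed at 0 in all 6.

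Cldn15, known from gut epithelium and also found in the mesothelium that lines the lung surface, had a log2 change close to that of Cdh16. With all libraries it was the more negative of the pair with a pseudocount of 1, also after median-ratio scaling (−1.41, against −1.38 for Cdh16). Cdh16 was the more negative with a pseudocount of 0.1 or 0.5 and by the ratio of means (0.235, against 0.331 for Cldn15). Cdh16 was so under the common-sum scaling too, where the added 1 weighed less. Cldn15 lies on chromosome 5, 136996723 to 137004699 (GRCm39). Its level was 10.98, 17.7 and 11.1 FPKM in control lung against 7.00, 3.40 and 2.77 FPKM after irradiation. The groups did not overlap, control 2 was the highest library and irradiated 1 the highest of its group. The log2 change of −1.45 ± 0.32 did not pass over all genes (limma adjusted p = 0.106). It passed without irradiated 1 (adjusted p = 0.0451) and was between 0.0935 and 0.393 in the other 14 alternatives.

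Mesothelial markers were read beside Cldn15. All 8 tested were negative (median −0.80), beside 55.8% of all genes tested. In 5 every irradiated library was below every control, beside 14.6% of all genes tested, while 0 of the 8 passed over all genes. Their summed FPKM was 275, 481 and 316 without irradiation, against 253, 157 and 197 after it. Control 2 was the highest library for the list as for Cldn15, and also for the pan-epithelial, cardiac muscle and adipose sums. Upk3b, a uroplakin of mesothelium, was at 45.4, 90.7 and 55.2 FPKM in control lung against 37.1, 13.6 and 14.7 FPKM after irradiation. The part of these cells in the level of Cldn15 was not tested. Fis1, the next expressed gene 1635 bases before Cldn15, had a log2 change of −0.29 ± 0.12 (limma adjusted p = 0.260).

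The window before the single annotated start of Cldn15 is shown because this claudin had the lowest ratio of irradiated to control mean among the tested claudins. It held 1 GC box, 108 bases before the start.

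Cldn15 (chr5:136967619-136967868, plus strand): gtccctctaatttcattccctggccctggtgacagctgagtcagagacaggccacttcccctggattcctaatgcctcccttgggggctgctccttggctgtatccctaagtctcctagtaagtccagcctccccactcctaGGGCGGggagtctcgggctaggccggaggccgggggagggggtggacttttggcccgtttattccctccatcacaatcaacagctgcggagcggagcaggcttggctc

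Cldn10, a claudin of secretory airway cells that forms paracellular ion channels, was at 22.6, 12.7 and 15.3 FPKM in control lung against 7.63, 10.5 and 11.6 FPKM after irradiation. The groups did not overlap, with 12.7 FPKM in control 2 near 11.6 FPKM in irradiated 3. The log2 change was −0.69 ± 0.23 (limma adjusted p = 0.204), and it was −0.48 without control 1, the highest library.

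Over Cldn10 the assembled locus began inside the gene. RefSeq gives the gene 2 starts that are 67079 bases apart, and the locus in the tables, in the coordinates of their own build, began 67079 bases inside the gene in 5 libraries and 66763 bases inside in control 2. The window before the inner start is shown for that reason. It was 72.4% G and C with 3 GC boxes, while the window before the outer start was 36.0% G and C with 0 matches.

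Cldn10 (chr14:118854700-118854949, plus strand): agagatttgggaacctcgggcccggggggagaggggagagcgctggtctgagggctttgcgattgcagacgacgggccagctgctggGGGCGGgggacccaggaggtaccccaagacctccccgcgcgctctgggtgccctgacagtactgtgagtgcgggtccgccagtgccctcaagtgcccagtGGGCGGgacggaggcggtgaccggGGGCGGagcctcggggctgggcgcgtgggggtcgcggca

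Scgb1a1, the main secretory product of club cells in the airway, was at 44203, 37661 and 30981 FPKM in control lung against 16267, 21332 and 26655 FPKM after irradiation (log2 change −0.83 ± 0.24, limma adjusted p = 0.164). Its highest library, control 1, and its lowest, irradiated 1, were the highest and lowest for Cldn10 as well. The 12 airway markers as a list went both ways, with 6 negative and a median of 0.02. Their part in the level of Cldn10 was not tested.

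The other epithelial claudins had lower levels. Cldn23 was at 1.95, 2.17 and 2.00 FPKM in control lung against 1.18, 1.17 and 1.84 FPKM after irradiation, which did not overlap (log2 change −0.35 ± 0.15, limma adjusted p = 0.286; −0.54 with a pseudocount of 0.1). Cldn8, a barrier claudin of kidney and airway, overlapped between groups at 2.16, 1.47 and 1.08 against 0.781, 0.613 and 1.52 FPKM (log2 change −0.39 ± 0.23, limma adjusted p = 0.424; −0.23 without control 1, −0.26 without irradiated 2 and −0.68 with a pseudocount of 0.1). Cldn1, a claudin of airway and skin, was at 4.04, 4.37 and 3.88 against 4.47, 2.91 and 4.20 FPKM, with irradiated 1 the highest and irradiated 2 the lowest library. Its log2 change was −0.08 ± 0.15, with 0.023 under the common-sum scaling and −0.050 with median-ratio scaling. With a library left out it was between −0.17 (without irradiated 1) and 0.067 (without irradiated 2).

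Cldn12, a claudin that lacks the PDZ-binding tail of most of its family, had the smallest standard error of the 17. It was at 8.15, 7.59 and 7.40 FPKM in control lung against 8.35, 8.03 and 8.46 FPKM after irradiation (log2 change 0.09 ± 0.08, limma adjusted p = 0.613; 0.22 under the common-sum scaling).

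Of the mesenchymal cadherins, Cdh11, a cadherin of fibroblasts and bone-forming cells, was at 16.7, 16.8 and 20.7 FPKM in control lung against 14.1, 7.53 and 14.9 FPKM after irradiation. The groups did not overlap, and irradiated 2 was by far the lowest. Its log2 change was −0.58 ± 0.24 (limma adjusted p = 0.282), and −0.29 (adjusted p = 0.355) without irradiated 2.

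Irradiated 2 also had the lowest median of the 12 fibroblast markers relative to the control mean, at −0.51, while irradiated 1 and 3 were at 0.25 and −0.37. Of these 12, 10 had negative changes (median −0.29), beside 55.8% of all genes tested. In 2 every irradiated library was below every control and in 1 above, beside 14.6% and 9.91% of all genes tested. Scn7a alone passed (log2 change −0.78 ± 0.09, limma adjusted p = 0.0447), beside 0.18% of all genes tested. Cdh13, a cadherin anchored by a lipid and lacking a cytoplasmic tail, was at 7.22, 11.4 and 8.73 FPKM in control lung against 8.56, 7.37 and 8.20 FPKM after irradiation. All 3 irradiated libraries lay within the control range (log2 change −0.14 ± 0.16, limma adjusted p = 0.677), and the sign turned without control 2 (0.014), while it was −0.28 without control 1.

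Cdh2, N-cadherin, had a low level, at 1.30, 1.31 and 1.07 FPKM in control lung against 1.22, 0.863 and 0.425 FPKM after irradiation (log2 change −0.30 ± 0.19, limma adjusted p = 0.453). It was −0.13 without irradiated 3 and −0.60 with a pseudocount of 0.1. In irradiated 3 the assembled locus over Cdh2 gave 1.35 FPKM, and with assembled loci the log2 change was −0.06. A switch from E-cadherin to N-cadherin is a familiar readout of epithelial to mesenchymal transition, and neither gene passed the threshold. Of 9 tested genes of that transition, a list that includes Cdh2, 4 had negative and 5 positive changes (median 0.01), and 0 passed. Fn1, fibronectin, had the smallest p of that list, at 33.7, 45.0 and 43.9 FPKM in control lung against 106, 74.6 and 46.5 FPKM after irradiation (limma adjusted p = 0.232).

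**Figure D4:**
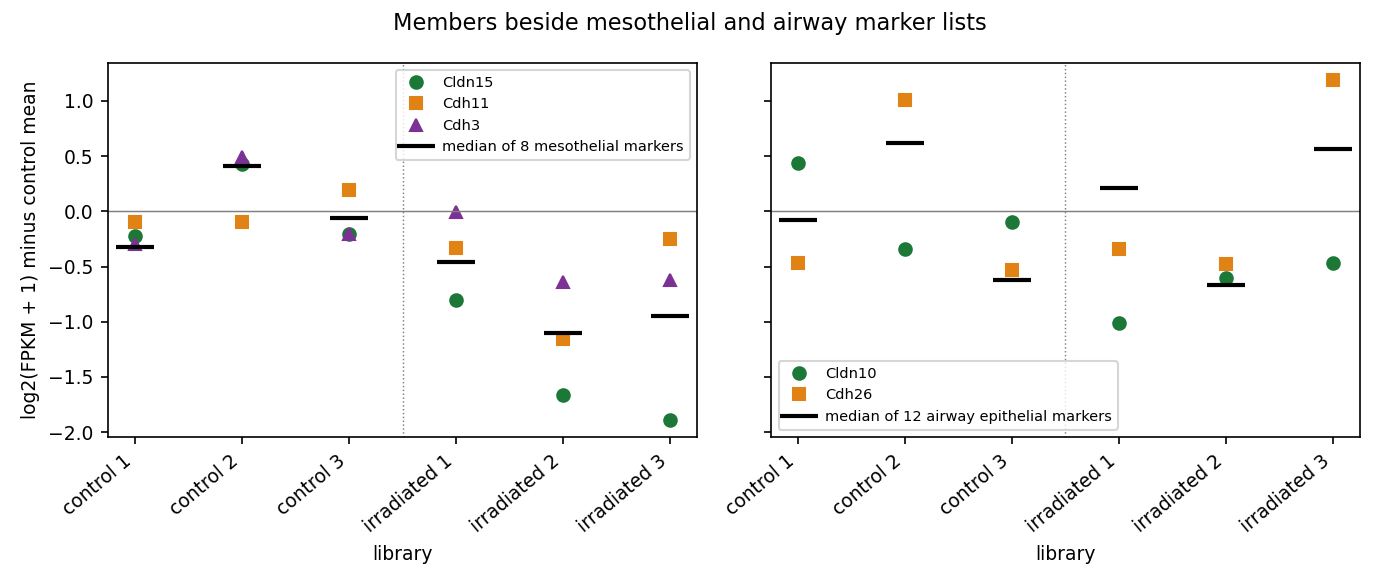
Cldn15, Cdh11 and Cdh3 beside mesothelial markers (left) and Cldn10 and Cdh26 beside airway epithelial markers (right), as log2(FPKM + 1) minus the control mean in each library, with black bars for the list median. The mesothelial median is 0.41 in control 2 and −1.11 in irradiated 2, and Cdh26 is high in control 2 (2.10 FPKM) and irradiated 3 (2.52 FPKM).

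Among the 30 members below a mean of 1 FPKM, 21 had a mean under 0.1 FPKM, and Cldn16 and Cldn25 were listed at 0 in all 6 libraries. They include cadherins of brain (Cdh8, Cdh10, Cdh12 and Cdh18) and claudins of kidney and ear (Cldn16 and Cldn14). At these levels the values carry much counting error, and these genes were left out of the test reported here. With no filter, 45 of the 47 members were tested, 7 of them had an unadjusted p under 0.05 and 0 passed in limma, beside 3531 and 0 of 31967 genes.

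Of the 9 between 0.1 and 1 FPKM, Cdh26, a cadherin of airway epithelium and eosinophils, differed between single libraries rather than groups. It was at 0.112, 2.10 and 0.0653 FPKM in control lung against 0.216, 0.111 and 2.52 FPKM after irradiation. Control 2 and irradiated 3 were also the highest libraries for Scgb3a1, a secretoglobin of larger airways (1087 and 281 FPKM, against 3.72 to 105 FPKM in the other 4). Scgb3a1 was chosen after its values were seen.

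Cdh3, P-cadherin of basal epithelium and mesothelium, was at 0.510, 1.61 and 0.611 FPKM in control lung against 0.848, 0.189 and 0.204 FPKM after irradiation. Cldn22, a short claudin gene beside Cldn24, was at 0.520, 1.80 and 0.628 FPKM against 0.396, 0.403 and 0.455 FPKM. Control 2 was the highest library for both, as for the summed mesothelial, pan-epithelial, cardiac muscle and adipose markers. The groups overlapped for Cdh3 and not for Cldn22. Groups also did not overlap for Cldn6, lower after irradiation, and for Cdh10, Cdh23 and Cldn19, higher after irradiation, all with group means under 0.2 FPKM. The share of all genes at such low levels whose groups did not overlap was not computed. These 7 genes were chosen after their values were seen.

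The partners of these junctions were read from lists beside the members. Of 22 listed genes of tight junctions, 21 were tested, 13 had negative changes (median −0.18) and 0 passed over all genes in limma. An unadjusted p under 0.05 was found in 3, beside 17.7% of all genes tested. In 5 every irradiated library was below every control and in 1 above, beside 14.6% and 9.91% of all genes tested. Pard6b, a polarity protein, was higher in every irradiated library, at 28.1, 25.2 and 28.2 FPKM against 33.5, 39.2 and 38.6 FPKM (log2 change 0.43 ± 0.10, limma adjusted p = 0.107). F11r, the junctional adhesion molecule JAM-A, was at 77.7, 79.5 and 77.3 against 66.5, 60.9 and 72.9 FPKM (limma adjusted p = 0.276). Esam, the endothelial adhesion molecule that is also on the endothelial list, was at 103, 96.4 and 112 against 84.8, 93.3 and 74.9 FPKM (limma adjusted p = 0.244).

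Of 16 listed adherens junction partners, 14 were tested, 12 had negative changes (median −0.18), 0 passed and 2 had an unadjusted p under 0.05, both lower, beside 10.3% of all genes tested. These were Nectin2, a nectin adhesion receptor, at 19.5, 18.4 and 18.7 against 16.3, 13.3 and 14.9 FPKM (limma adjusted p = 0.161), and Jup, plakoglobin, at 70.2, 63.5 and 69.1 against 56.4, 57.8 and 53.9 FPKM (adjusted p = 0.195). For both the groups did not overlap. In 5 of the 14 every irradiated library was below every control, beside 14.6% of all genes tested. The others of these 5 were Ctnnb1 (β-catenin), Ctnna1 and Nectin1, while Ctnnd1 (p120-catenin) overlapped between groups. Ctnnb1, Ctnna1 and Ctnnd1 were named after their values were seen. Ptprb, the endothelial phosphatase that binds VE-cadherin, was at 62.1, 47.2 and 61.9 against 33.3, 40.7 and 52.6 FPKM and did overlap.

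Desmosome genes were balanced, with 4 of 8 tested negative and 0 passed. The other genes of the cadherin superfamily were mostly positive, with 5 of 14 tested negative (median 0.07) and 0 passed. In that list Pcdh18, a protocadherin, had the smallest p, at 9.52, 7.99 and 8.52 against 7.07, 6.39 and 6.19 FPKM (limma adjusted p = 0.161). Cdhr3 and Cdhr4, cadherin-related genes of ciliated cells chosen after their values were seen, were lowest in control 3 (11.7 and 10.7 FPKM) and highest in irradiated 3 (45.6 and 49.3 FPKM).

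Transcription factors known to act on junction genes had 12 of 17 tested negative (median −0.13), with 0 passed and 4 at an unadjusted p under 0.05, all lower, beside 10.3% of all genes tested. Of these 4, 3 were SoxF factors of endothelium and the other was Ovol2, an epithelial repressor. Sox17 was at 16.1, 9.82 and 13.1 FPKM in control lung against 5.30, 8.06 and 6.16 FPKM after irradiation (log2 change −0.89 ± 0.20, limma adjusted p = 0.110). Sox7 was at 25.5, 18.1 and 14.4 against 8.76, 11.2 and 5.74 FPKM (log2 change −1.09 ± 0.27, adjusted p = 0.131). In both the groups did not overlap, while Sox18, a factor known to act on Cldn5, was at 59.4, 44.1 and 34.1 against 27.6, 34.6 and 26.2 FPKM with irradiated 2 inside the control range.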

How the data were processed

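Per the labels' protocols, polyA libraries of whole lung were read on a DNBSEQ-T7. GRCm39, STAR 2.7.6a, fastp and DESeq2 appear, with no roles, in the submitters' processing notes. For the program behind the tables, its annotation and its strand setting, nothing is stated. Per the file headers, the deposited values are FPKM and per-base coverage (signal) of each gene. Coverage served only to show depth.

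Rows with a gene name were kept and FPKM summed per gene identifier. log2(FPKM + 1) was fitted with limma 3.58.1 (trend, robust) in R 4.3.3 for the 13908 genes averaging 1 FPKM or more, with the group as the only term. P-values were adjusted by Benjamini-Hochberg over all of them. The fit was tested on simulated data. The members, classes and lists were chosen with earlier results of these data known. Named are the tested members, up to 4 genes of the smallest p per list, neighbours of a called member, and, chosen after their values were seen, Fis1, Tg, Umod, Kap and others where stated. Classes were assigned from general knowledge. Depth limits the low values, and no counts were used. Alternatives were other pseudocounts, filters, scalings and variance estimates, a replicate block and libraries left out. Python 3.11.15 and pandas 2.3.3 handled the tables.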

Additional observations from a re-analysis of the deposited data

How the results depend on the processing

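The count of called genes moved from 25 to 0 with no filter, 38 with a minimum of 5 FPKM, 11 with median-ratio scaling, 14 with the common sum and 0 with the replicate block. It ranged from 0 to 116 when a library was left out and was 9 without control 2 and irradiated 2, a setting chosen after seeing the data. The count of called members moved from 1 to 0 with no filter, with the minimum of 5 FPKM (which leaves Cdh16 untested), with the replicate block and without control 2 and irradiated 2, and it ranged from 0 to 2 when a library was left out. Cdh16 and Cldn15 were the 2 called without irradiated 1.

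Same-numbered libraries did not deviate together (r = −0.17, −0.537 and −0.28 for numbers 1 to 3), and the main fit used no pairing. Libraries of unlike number gave r from −0.278 to 0.522. With 3 libraries per group these values cannot exclude a pairing. Of 249 member values under alternatives, 233 kept their direction and side of the threshold. The 8 that turned sign belonged to 4 members that did not pass: Cdh1 (0.013), Cdh5 (0.0030) and Cldn1 (0.023) under the common sum, Cdh13 without control 2 (0.014), Cdh5 without irradiated 3 (0.041; −0.23 to 0.041 with a library left out), Cldn1 without irradiated 2 (0.067), and Cdh13 (0.070) and Cldn1 (0.11) without control 2 and irradiated 2. The endothelial against epithelial difference (Cdh16 left out, Cldn4 included), −0.07 with all libraries, lay between −0.35 and 0.17. Assembled loci in place of named genes, also chosen after seeing the data, gave the same sign for 17 of 17 members, 15 of them within 0.05. This is no independent check. For Cdh1, Cdh5, Cldn1, Cldn3, Cldn4, Cldn5, Cldn18 and Cldn23 the locus repeated the ends and FPKM of the named gene in every library. The cause of these moves was not tested. Counting error, which the files do not allow to be computed, limits members near 1 FPKM and below.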
